A study of Homo sapiens with 12 samples.

Results

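Cells transfected with the telomeric RNA oligonucleotide (uuaggg)4 were set against cells transfected with the DNA aptamer AS1411, both of which form G-quadruplexes (G4), within each of 3 human cancer cell lines. All 6 arrays of these treatments were used, of 12 in the series, and 41091 of 54675 probe sets, those that name 1 gene and are not array controls, entered as 19775 genes. The lines were PC-3 (prostate), HBC4 (breast) and MKN74 (stomach). Each was reverse transfected with a lipid reagent and 1.0 µg of oligonucleotide, about 100 pmol per well, into 300000 cells, kept on low-adhesion plates in 3-dimensional culture and harvested after 72 hours. The 4 treatments were (uuaggg)4, AS1411, the RNA control (uuaccc)4 and the reagent alone, with 1 array for each line and treatment. No control DNA oligonucleotide was among the samples, so RNA or DNA backbone and base sequence cannot be told apart in the comparison. With 1 culture per line and treatment, the replicates of a treatment are the 3 lines.

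A G4 is a 4-stranded fold in which runs of guanines stack as planar tetrads. The repeat in (uuaggg)4 is that of TERRA, the RNA transcribed from telomeres, and AS1411 is a guanine-rich DNA known for binding nucleolin, an abundant nucleolar protein that in tumour cells is also found at the cell surface. Foreign RNA and DNA inside a cell are read by different sensors (RIG-I, MDA5 and TLR3 for RNA, cGAS, IFI16 and TLR9 for DNA), which feed into type I interferon and the interferon-stimulated genes.

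Between the 2 G4 oligonucleotides no gene passed the test. Of 19775 genes, 0 had an adjusted p under 0.05 in limma's moderated test with cell line as a block (0% called; lowest adjusted p = 0.76), and 893 (4.52%) had an unadjusted p under 0.05, of which 473 were higher (2.39%) and 420 lower (2.12%) in (uuaggg)4 cells. Values are log2 differences, (uuaggg)4 minus AS1411, so a positive one means more signal with (uuaggg)4. The same sign in all 3 lines was found for 2639 genes (13.3%) with higher and 2481 genes (12.5%) with lower values in (uuaggg)4 cells, and in the control pair, (uuaccc)4 minus reagent alone, for 1952 (9.87%) and 2709 (13.7%). Genes are said here to lean when all 3 line differences had the same sign and the smallest was at least 0.3 in size: 57 (0.288%) leaned up and 30 (0.152%) leaned down. The control pair, which shares no array with the comparison, gave 13 genes (0.0657%) leaning up and 15 (0.0759%) leaning down by the same rule, and 0 genes past the adjusted threshold (567 at unadjusted p under 0.05, 2.87%). At 0.5, 7 genes leaned up and 1 down with the G4 pair, against 0 and 2 with the control pair. The rule set the members, so their values below are a description. WASL (0.3048) and ACSM2A (−0.3031) were just inside it, NECTIN4 (0.2998) and CA10 (−0.29) just outside.

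**Figure D1:**
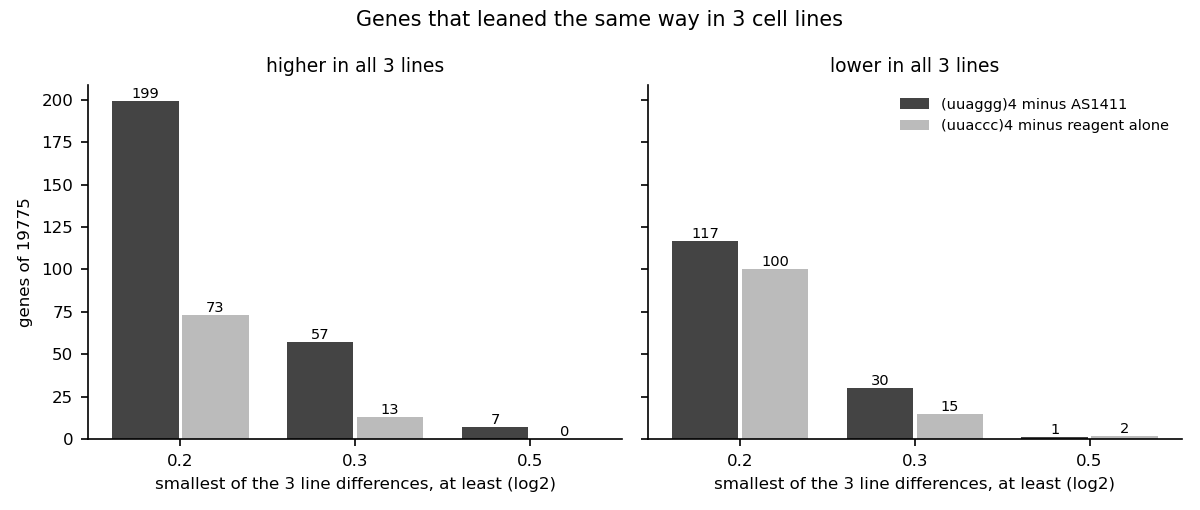
Number of genes, of 19775, higher (left panel) or lower (right panel) in all 3 cell lines with the smallest line difference at least 0.2, 0.3 or 0.5 on the log2 scale. Dark bars are (uuaggg)4 minus AS1411 and light bars (uuaccc)4 minus reagent alone; at 0.3 the counts were 57 and 13 higher, 30 and 15 lower.

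The difference between the G4 oligonucleotides was of about the size of that between the controls within a line. Its standard deviation over genes was 0.221 (PC-3), 0.225 (HBC4) and 0.24 (MKN74), against 0.192, 0.228 and 0.224 for the control pair. Across genes, which are not independent replicates, the G4 difference in one line was nearly unrelated to that in another (r = −0.006 for PC-3 and HBC4, 0.096 for PC-3 and MKN74, 0.045 for HBC4 and MKN74). Within a line the G4 difference and the control difference, which share no array, correlated at −0.074 (PC-3), −0.159 (HBC4) and 0.115 (MKN74) over genes. The lines carried markers of their labels in part: HOXB13 was 4.86 above the next line in PC-3, ESR1 3.18 above in HBC4, and CDX2 1.52 above in MKN74. The mucosal genes TFF1 and TFF3 were highest in PC-3 and not in MKN74, and KLK2 and KLK3 were highest in HBC4. Besides CDX2, VIL1 was 0.50 above in MKN74, while CDX1, CDH17, LGALS4 and CLDN18 were highest in HBC4, by 0.181 or less. Some markers of other cell types also stood out, such as CD14 by 3.01 in HBC4 and COL3A1 by 3.23 in PC-3. Since the deposited values are centred per probe set, they cannot show whether a marker was absent.

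The gene group that stood highest was the interferon-stimulated genes. Of 60 measured members, 41 (68.3%) were higher in (uuaggg)4 cells than in AS1411 cells in all 3 lines, against 13.3% of all genes, 0 were lower in all 3, and 19 were mixed. Their median difference was 0.25, with line medians of 0.27 (PC-3), 0.34 (HBC4) and 0.19 (MKN74), beside a median of 0.00014 over all genes. Values were above 0 for 52, 58 and 51 of the 60 genes in PC-3, HBC4 and MKN74. None passed the adjusted threshold, and 3 had an unadjusted p under 0.05, all higher, where 2.39% of all genes did. The members leaning up were IFI44, OAS2, IFI16, EPSTI1 and PARP9, which is 8.77% of the 57 leaning genes and 8.33% of the list, while the list makes up 0.303% of all genes. The list was written with earlier results of these data known, so its direction is not independent evidence.

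IFI44, an interferon-induced cytoplasmic protein, had deposited log2 values, where 0 is the 12-array median, of −0.13, 0.05 and −2.34 in (uuaggg)4 cells (PC-3, HBC4 and MKN74, in that order here and below), against −0.55, −0.60 and −2.99 in AS1411 cells. It had 2.79, 3.26 and 0.45 in (uuaccc)4 cells and 2.97, 2.97 and −0.05 with the reagent alone. All 6 G4 arrays thus lay below both control arrays of their line, with AS1411 the lower of the 2 G4 arrays each time. The mean difference was 0.57 (95% interval 0.24 to 0.91, n = 3 lines; limma, unadjusted p = 0.0031, adjusted p = 1.00), or 1.49-fold.

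OAS2 makes short oligoadenylates when it binds double-stranded RNA, which switch on the nuclease RNase L. It had 0.91, −1.53 and −1.54 in (uuaggg)4 cells against 0.31, −2.39 and −2.01 in AS1411 cells, a mean difference of 0.64 (95% interval −0.09 to 1.38). IFI16, a nuclear sensor of DNA, had 0.10, −0.998 and −1.30 in (uuaggg)4 cells against −0.90, −1.46 and −1.77 in AS1411 cells, a mean difference of 0.65 (0.01 to 1.28). In both genes the AS1411 array was the lowest of the 4 arrays in every line. The 2 other probe sets of IFI16 had means of 0.31 and 0.32, while those of OAS2 lay between −0.09 and 0.04.

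IFIT3, which belongs to a family that binds viral RNA, had −0.04, −0.29 and −1.81 in (uuaggg)4 cells against −0.36, −0.79 and −2.08 in AS1411 cells. The difference averaged 0.36 (0.05 to 0.67) and was above 0 in all 3 lines. EPSTI1 and PARP9, a poly(ADP-ribose) polymerase family member, averaged 0.52 and 0.36. IFIT1, ISG15 (a ubiquitin-like modifier) and IFIT2 were also higher in all 3 lines, with means of 0.65, 0.37 and 0.36. The largest member differences within a line were 1.00 for IFI16 in PC-3, 1.27 for IFIT1 in HBC4 and 0.81 for GBP1 in MKN74.

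**Figure D2:**
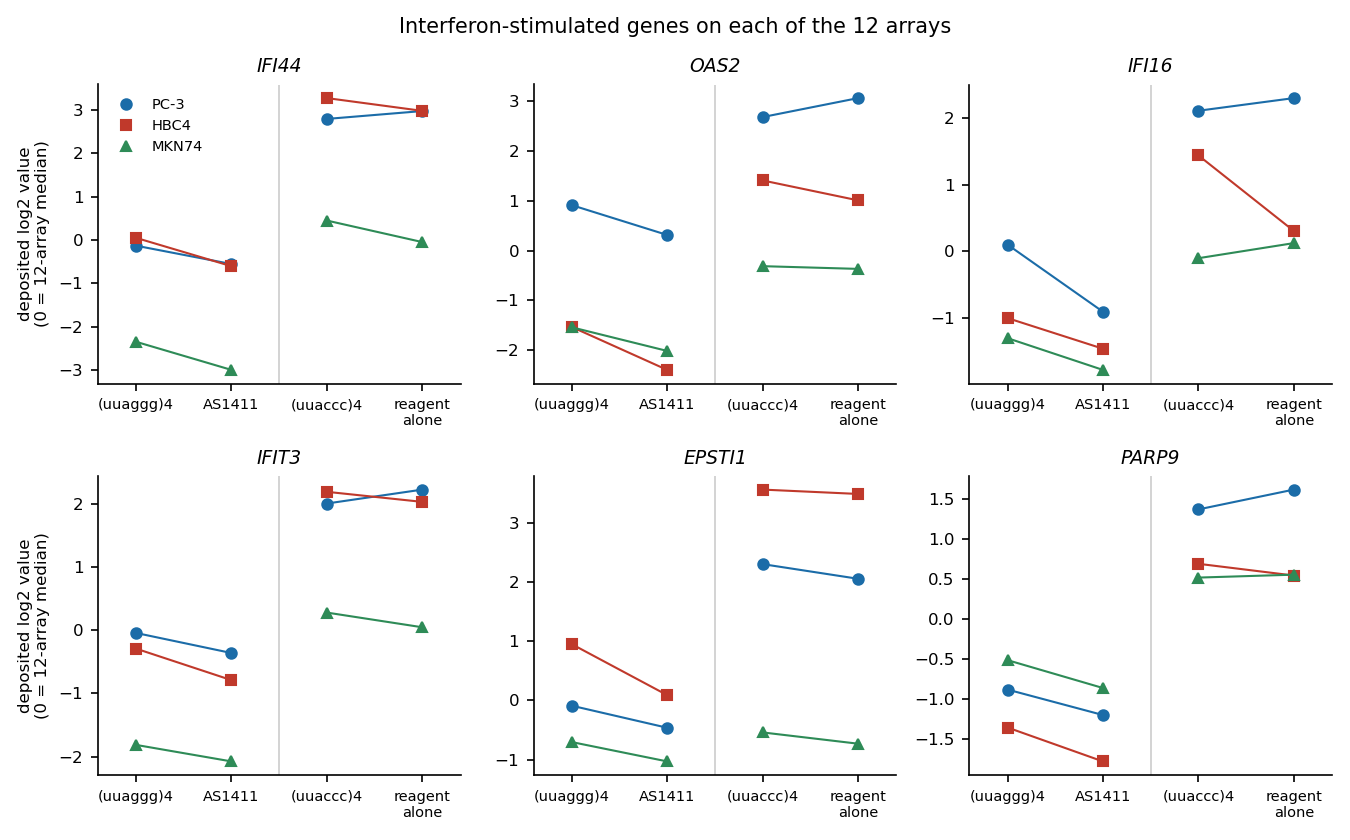
Deposited log2 values of IFI44, OAS2, IFI16, IFIT3, EPSTI1 and PARP9 on each array (y axis, 0 is the 12-array median of the probe set), with a point per cell line and treatment and lines joining (uuaggg)4 to AS1411 and (uuaccc)4 to the reagent alone. In each panel all 3 lines had a higher value with (uuaggg)4 than with AS1411, and both G4 treatments lay below the controls of their line except for EPSTI1 in MKN74.

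The members that did not follow in every line included MX1, the antiviral GTPase (−0.05, 0.74 and 0.49), IFI44L (−0.04, 1.14 and 0.28) and OAS1 (−0.06, 0.50 and 0.13), which were near 0 in PC-3. RSAD2, the antiviral enzyme viperin, had 0.87, 0.65 and −0.11, and XAF1 had 0.26, 0.80 and −0.36, so that MKN74 was the line out of step. IFI27, a mitochondrial protein, did have 1 sign throughout, with 0.08, 0.20 and 0.16. Beside the chosen probe sets, 46 other probe sets of list members had a median of 0.14, and 18 of them were higher and 3 lower in all 3 lines, where 14.4% and 12.3% of other probe sets over all genes were.

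The list was lower with each G4 oligonucleotide than with the control of its own arm, and the AS1411 arm was the lower. The median of (uuaggg)4 minus (uuaccc)4 was −1.62, with 25 of 60 members past an adjusted p of 0.05 and lower, where 0.233% of all genes were (limma). The median of AS1411 minus reagent alone was −1.88, with 42 of 60 past it, where 0.496% of all genes were. Set against the mean of both controls of the line, the medians were −2.16 for (uuaggg)4 and −2.48 for AS1411 in PC-3, −1.72 and −1.95 in HBC4, and −1.01 and −1.17 in MKN74. The 2 controls differed little by comparison: (uuaccc)4 minus reagent alone had a list median of −0.06, with line medians of −0.25 (PC-3), 0.11 (HBC4) and −0.00021 (MKN74). The PC-3 median for the controls was nearly as large as that for the G4 pair and of opposite sign. With each G4 oligonucleotide taken against its own control, the difference of differences had a list median of 0.34, and 36 members were above 0 in all 3 lines where 13.3% of all genes were; 0 of 19775 genes passed in that fit (758 at unadjusted p under 0.05, 3.83%).

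Promoters were searched for the core of the interferon-stimulated response element, a motif that the ISGF3 complex is known to bind. A match is a description of the sequence, not a measured site. The core was written as GAAA, 2 bases of any kind and GAAA again, on both strands, from 250 bases before to 50 after each gene's start in RefSeq (GRCh38.p14), and was found in 32 of 49 list members with a promoter in the table (65.3%), against 453 of 15384 promoters of all genes tested (2.94%). The gamma activated sequence, TTCNNNGAA, was in 22.4% of the list and 6.95% of all. Members higher in all 3 lines held the first motif in 22 of 35 promoters (62.9%) and the other members in 10 of 14 (71.4%). Of the leaning genes, 3 of 44 leaning up (6.82%) and 0 of 21 leaning down held it. The windows of the 2 list members with the smallest p are printed with matches of the first motif in capitals, read on the opposite strand: IFI44 at chr1:78649539-78649838, plus strand, with 1 match, and IFIT3 at chr10:89327747-89328046, plus strand, with 2. The window of IFI16 held neither motif.
IFI44: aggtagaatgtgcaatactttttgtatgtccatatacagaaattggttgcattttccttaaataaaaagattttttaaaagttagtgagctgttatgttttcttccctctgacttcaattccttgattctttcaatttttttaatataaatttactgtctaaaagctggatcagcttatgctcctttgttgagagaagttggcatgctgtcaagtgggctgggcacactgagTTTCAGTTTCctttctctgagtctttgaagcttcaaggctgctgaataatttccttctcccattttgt
IFIT3: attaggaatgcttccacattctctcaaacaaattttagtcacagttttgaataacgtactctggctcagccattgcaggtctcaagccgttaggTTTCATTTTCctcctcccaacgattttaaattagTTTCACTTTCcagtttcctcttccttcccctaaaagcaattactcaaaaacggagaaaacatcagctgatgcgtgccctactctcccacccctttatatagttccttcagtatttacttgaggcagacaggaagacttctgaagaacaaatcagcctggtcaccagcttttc

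The sensors showed no common direction. Of 22 measured RNA sensors and adaptors, 6 were higher (27.3%, against 13.3% of all genes) and 2 lower (9.09%, against 12.5%) in all 3 lines, with a median of 0.07. The lists share members: 7 of the 22 are also in the interferon-stimulated list, among them 4 of the 6 higher ones (RIGI, IFIH1, EIF2AK2 and OAS2). Among 23 DNA sensors and adaptors, 4 were higher (17.4%) and 5 lower (21.7%), with a median of −0.008, and 1 of the 4, IFI16, is in the interferon-stimulated list. RIGI, the RIG-I helicase and itself interferon-induced, was higher by 0.52, 0.74 and 0.26 with (uuaggg)4, and DNASE2, a lysosomal DNA-degrading enzyme, by 0.37, 0.20 and 0.22. IFIH1, which encodes MDA5, had 0.32, 0.25 and 0.02. TLR7, an endosomal receptor of single-stranded RNA, had −0.27, −0.57 and −0.09. CGAS (0.03, 0.26 and −0.29) and STING1 (−0.03, 0.12 and 0.43) had no common sign.

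Interferons and their receptors (15 measured) had a median of −0.02, with 3 higher (20%) and 1 lower (6.67%) in all 3 lines. Over all genes 13.3% were higher and 12.5% lower, and the control pair had 3 and 2 of the 15. The 1 lower was IFNL2. The 2 interferon lambda genes had opposite signs: IFNL1 had 0.73, 0.26 and 0.06 in PC-3, HBC4 and MKN74, and IFNL2 had −0.21, −0.84 and −0.13. MHC class I presentation (17 measured) had a median of 0.04, with 5 higher (29.4%) and 0 lower in all 3 lines. The control pair had 0 higher and 4 lower. Of the 5 higher ones, TAP1 and PSMB9 are also in the interferon-stimulated list. ERAP2, which trims peptides for class I, leaned up by 0.34, 0.32 and 0.47, and NLRC5, a transactivator of class I genes, had 0.38, 0.14 and 0.30. NF-kB targets and inflammatory cytokines (24 measured) had a median of 0.02, with 4 higher (16.7%) and 1 lower (4.17%), against 3 and 2 in the control pair.

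Apart from the interferon genes, the genes leaning furthest up with (uuaggg)4 were NIPBL, CDC42BPA, LMO7, PLEKHA2, SEPTIN7, PRRC2C, SPAG9, SF3B1, TOX-DT and HACD2. NIPBL, which loads cohesin onto DNA, had 0.63, −0.54 and −0.0040 in (uuaggg)4 cells against 0.0040, −1.24 and −1.10 in AS1411 cells, and 0.70, −0.17 and 0.17 in (uuaccc)4 cells against 0.68, −0.22 and 0.21 with the reagent alone. The AS1411 array was the lowest of its line each time, while (uuaggg)4 lay near the controls in PC-3 and MKN74. The mean difference was 0.81 (95% interval 0.54 to 1.08; unadjusted p = 4.1e-05, adjusted p = 0.76 in limma), 1.75-fold.

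LMO7, a LIM-domain protein of cell junctions, had 1.12, −3.23 and 0.22 in (uuaggg)4 cells against 0.47, −3.82 and −0.32 in AS1411 cells. Its line differences of 0.65, 0.59 and 0.54 were close to each other, and its (uuaggg)4 minus (uuaccc)4 difference was 0.0093. SF3B1, a splicing factor that recognises the branch site, had line differences of 0.62, 0.46 and 0.66 and an AS1411 minus reagent alone difference of −0.43. CDC42BPA, a kinase that acts on myosin, averaged 0.81, PRRC2C 0.78, the septin SEPTIN7 0.76, PLEKHA2 0.75, the kinase scaffold SPAG9 0.62, HACD2, an enzyme of very long fatty acid synthesis, 0.50, and the non-coding TOX-DT 0.48. The control pair differed by similar amounts in single lines, with mixed signs over the lines. In HBC4 it had 0.95 for CDC42BPA, 0.75 for PRRC2C, 0.92 for PLEKHA2, −1.08 for SEPTIN7 and 0.50 for SPAG9. In MKN74 it had −0.27, −0.15, 0.39, 0.74 and 0.78 for the same genes. Other probe sets had means of −0.10 to −0.05 for SEPTIN7 and 0.05 to 0.34 for SPAG9.

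Over the 57 genes leaning up, the median of AS1411 minus reagent alone was −0.62 and that of (uuaggg)4 minus (uuaccc)4 −0.09. The genes were picked through these same AS1411 and (uuaggg)4 arrays, and the arms have unlike controls. Which arm the difference belongs to was not tested. The control pair median of the 57 genes was 0.03. None of the 57 leaned in a second probe set. The array holds several probe sets for 45 of the 57, and their 121 other probe sets had a median of 0.02, with 22 higher in all 3 lines (18.2%, against 14.4% for other probe sets of all genes) and 0 leaning. NIPBL's 4 other probe sets had means between −0.10 and 0.05, and the 4 of SF3B1 between −0.13 and 0.40. Which transcripts the leaning probe sets detect was not tested.

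**Figure D3:**
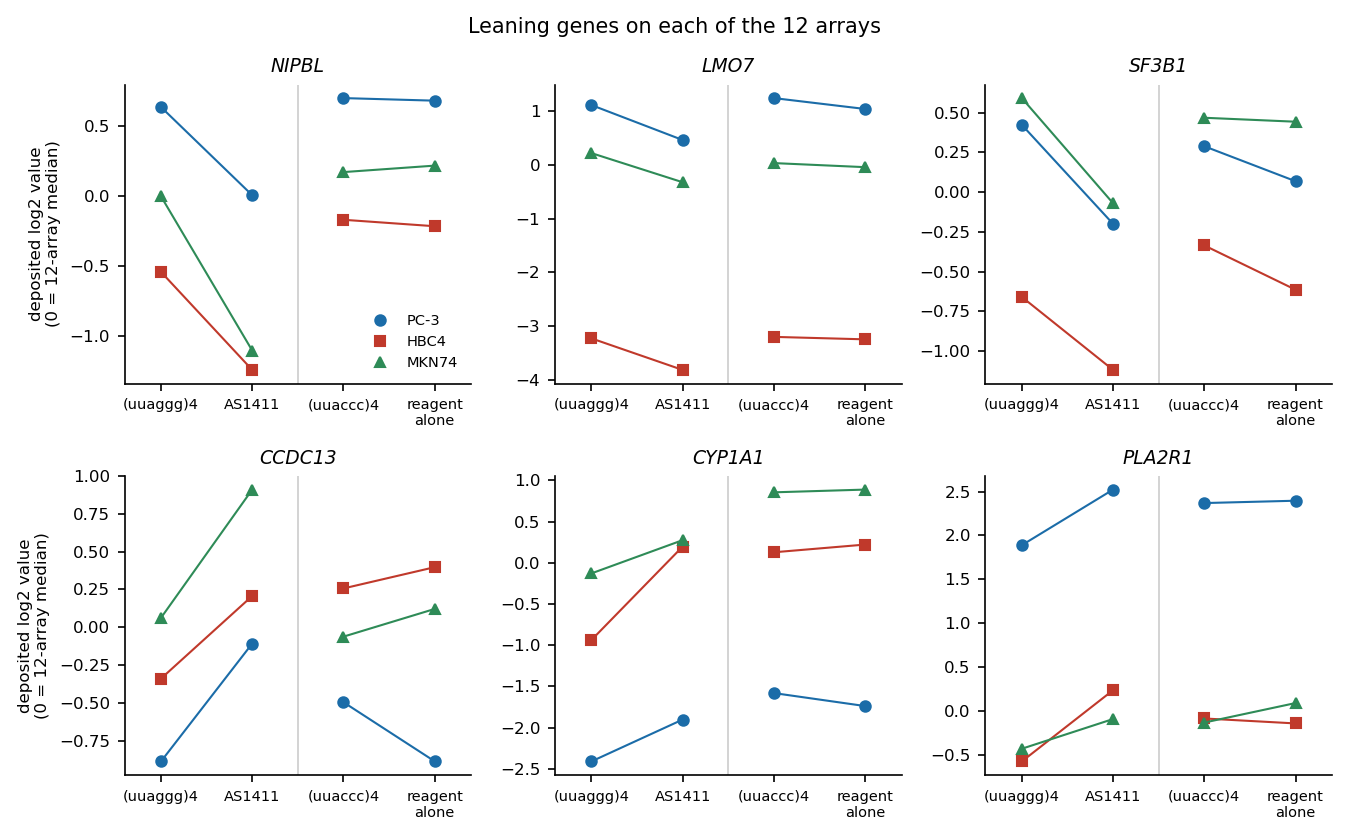
Deposited log2 values of 3 genes leaning up (NIPBL, LMO7, SF3B1) and 3 leaning down (CCDC13, CYP1A1, PLA2R1) on each array, drawn per cell line with lines joining (uuaggg)4 to AS1411 and (uuaccc)4 to the reagent alone. The slopes between the G4 treatments run the same way in the 3 lines of each panel, while those between the controls are flatter or mixed.

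With every probe set taken separately, 130 of 41091 leaned up (0.316%), in 126 genes, and 46 leaned down (0.112%), in 46 genes. The control pair gave 23 up (0.056%) and 31 down (0.0754%). With the probe sets of each gene averaged, 16 genes leaned up (0.0809%) and 11 down (0.0556%). The control pair then gave 6 up (0.0303%) and 6 down (0.0303%). Only EZR and MALAT1 had more than 1 leaning probe set. EZR encodes ezrin, which ties membrane proteins to actin: 2 of its 5 probe sets leaned up, by 0.89, 0.70 and 0.59 and by 0.86, 0.77 and 0.62, while its probe set with the widest spread between lines had −0.08, 0.32 and −0.14. MALAT1, a nuclear long non-coding RNA of splicing speckles, leaned up in 4 of 12 probe sets, and 11 of 12 were higher with (uuaggg)4 in all 3 lines. Their medians were 0.90 (PC-3), 0.32 (HBC4) and 0.60 (MKN74). These probe sets read 1 RNA, so they are not replicates.

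In the control pair 0 of the 12 MALAT1 probe sets had 1 sign in all 3 lines in the upward direction and 0 in the downward one, with medians of 0.10, 0.16 and 0.15. The MALAT1 probe set chosen for the gene had 0.11, −0.09 and 0.15 in (uuaggg)4 cells against −0.78, −0.37 and −3.51 in AS1411 cells, and 0.37, −0.02 and 0.46 in (uuaccc)4 cells against 0.02, 0.39 and −3.06 with the reagent alone. In MKN74 its difference of 3.67 was thus nearly matched by one of 3.52 between the 2 controls, and the same held for the probe set with 2.64 (2.47 between the controls). The other 10 probe sets differed by 0.01 to 1.17 in MKN74. In HBC4 the controls differed by 1.693 and 1.689 on probe sets 2 and 3, more than the G4 oligonucleotides did there (0.251 and 0.163).

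**Figure D4:**
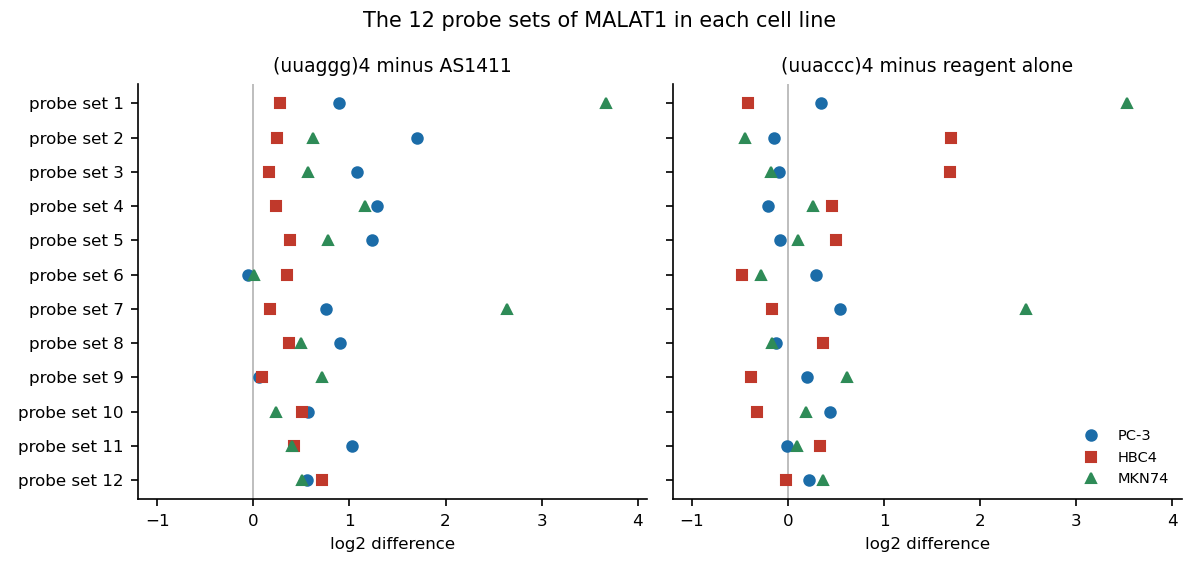
Log2 differences of the 12 MALAT1 probe sets, 1 row each, for (uuaggg)4 minus AS1411 (left) and (uuaccc)4 minus reagent alone (right), with a point per cell line. On the left 35 of the 36 points lie above 0, and 2 MKN74 points near 3.67 and 2.64 recur on the right at 3.52 and 2.47.

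Genes leaning down with (uuaggg)4 were fewer, with a median difference of −0.45 against 0.52 for those leaning up. CCDC13, a centriolar satellite protein, had −0.89, −0.34 and 0.06 in (uuaggg)4 cells against −0.11, 0.21 and 0.91 in AS1411 cells, a mean difference of −0.73 (95% interval −1.15 to −0.30). It was the only gene whose 3 line differences were all beyond 0.5 downward, and its 3 other probe sets had means between −0.20 and 0.06. PLA2R1, a receptor of secreted phospholipase A2, had line differences of −0.63, −0.81 and −0.34 (mean −0.60, −0.83 to −0.36). Its other probe sets did not follow: of the 3, 1 had 0.46, 0.17 and 0.24 and another 0.08, 0.21 and 0.41, and averaged over its 4 probe sets the difference was −0.0187. Of the 30 genes leaning down, 19 have several probe sets, and their 34 other probe sets had a median of −0.02. Of these 34, 10 were lower in all 3 lines (29.4%, against 12.3% for other probe sets of all genes) and 0 leaned.

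CYP1A1, the enzyme of polycyclic hydrocarbon metabolism that the aryl hydrocarbon receptor induces, had −2.41, −0.94 and −0.13 in (uuaggg)4 cells against −1.90, 0.20 and 0.28 in AS1411 cells, −1.58, 0.13 and 0.86 in (uuaccc)4 cells and −1.74, 0.22 and 0.89 with the reagent alone. The (uuaggg)4 array was the lowest of its line in all 3 lines. The mean difference was −0.68 (95% interval −0.99 to −0.37; unadjusted p = 0.00051, adjusted p = 0.76 in limma), or 1.6-fold lower. Against the control of its own arm, (uuaggg)4 differed by −0.96 (adjusted p = 0.026 in limma), where 0.233% of all genes passed and were lower. AS1411 minus reagent alone was −0.27 (adjusted p = 0.44 in limma). CYP1A1 was chosen through the same (uuaggg)4 arrays, so the first of these p-values is not independent support. The gene has 1 probe set.

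The other genes furthest down were TRIM9, a ubiquitin ligase known from neurons (−0.43), TRBC1 of the T cell receptor (−0.46), RPP25, a subunit of RNase P (−0.51), the smooth muscle actin ACTG2 (−0.46), HID1 (−0.51) and the non-coding MYRF-AS1 (−0.45), LINC00459 (−0.48), LINC00313 (−0.43) and LOC101928009 (−0.42). TRIM9 differed least between lines, with −0.44, −0.42 and −0.43. Of the 30 genes leaning down, 8 were long non-coding RNAs (26.7%), against 13.5% of genes with a known type and 3.51% of those leaning up. Their control pair median was −0.03, and (uuaccc)4 was below the reagent alone in 11 (PC-3), 14 (HBC4) and 19 (MKN74) of the 30.

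Genes tied to the known partners of either oligonucleotide had medians near 0. NCL, which encodes nucleolin, had 0.0017, −0.09 and −0.05 (mean −0.05, 95% interval −0.24 to 0.15). Its 1 other probe set had a lower mean, −0.387, outside that interval, so the 2 probe sets of NCL differed. PRMT5, an arginine methyltransferase whose complex with nucleolin AS1411 is known to alter, had 0.14, −0.03 and 0.14. The survival gene BCL2 had 0.33, −0.22 and −0.19. The 10 measured genes linked to nucleolin or AS1411 had a median of −0.007, with 2 higher and 0 lower in all 3 lines. EGFR had 0.03, 0.86 and −0.02, a difference in HBC4 alone. The 22 nucleolar and ribosome biogenesis genes had a median of −0.06, with 0 higher and 10 lower in all 3 lines (45.5%, against 12.5% of all genes), but the control pair gave nearly the same, a median of −0.06 with 1 higher and 9 lower. NOP2, a ribosomal RNA methyltransferase, had −0.42, −0.16 and −0.07.

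The 19 telomere maintenance genes had a median of 0.02, with 4 higher (21.1%) and 2 lower (10.5%) in all 3 lines. Over all genes the shares were 13.3% and 12.5%, and the control pair had 1 and 3 of the 19. TERF1 (0.06, −0.00017 and −0.17) and TERF2 (−0.21, 0.32 and −0.06), which bind double-stranded telomere repeats, had no common sign. ATRX, a chromatin remodeller that acts at telomeres, leaned up by 0.87, 0.58 and 0.43 in 1 of 4 probe sets, and TNKS2, a tankyrase, had 0.07, 0.61 and 0.28. The 22 G4-binding proteins and helicases had a median of 0.003, with 1 higher and 1 lower in all 3 lines. DHX36, a helicase that unwinds G4 RNA and DNA, had 0.25, 0.23 and −0.02.

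The remaining lists held a few members with the same sign in each line. Over all genes 13.3% were higher and 12.5% lower in all 3 lines, to be set beside each count below. Cell division (26 measured) had a median of −0.03 with 2 higher and 5 lower, among them the kinetochore gene SPC25 (−0.39, −0.30 and −0.25) and the checkpoint gene MAD2L1 (−0.18, −0.14 and −0.47). In the control pair 6 of these 26 were higher and 0 lower. DNA replication (26) had 0 higher and 2 lower, TYMS, which makes thymidylate, at −0.15, −0.15 and −0.19. PRR11, a gene of the cell cycle, had 0.007, −0.04 and −0.10. Of 21 p53 targets 4 were higher (19%) and 0 lower, against 1 and 4 in the control pair. XPC, the sensor of nucleotide excision repair, was at 0.28, 0.25 and 0.42.

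Cholesterol synthesis (14) had 6 higher (42.9%, against 13.3% of all genes) and 1 lower with a median of 0.03, and the control pair had 0 and 0. With each G4 oligonucleotide against its own control, 1 member was higher and 0 lower in all 3 lines. The list was led by HMGCS1 (0.26, 0.41 and 1.17) and SQLE (0.33, 0.23 and 0.30). The MKN74 difference of HMGCS1 was matched by 1.44 between the controls. Metallothioneins and oxidative stress genes (17) had the lowest median, −0.12, with 1 higher and 4 lower (23.5%), against 2 and 5 in the control pair, and GCLM of glutathione synthesis had −0.23, −0.29 and −0.35. The heat shock list (15) had 3 higher and 3 lower, with the chaperone HSP90AB1 at 0.55, 0.17 and 0.32. Cytosolic ribosomal proteins (22) had 1 higher and 5 lower (22.7%), against 2 and 4 in the control pair, with RPL7 at −0.56, −0.18 and −0.36. Among 9 snoRNA host genes 0 were higher and 4 lower (44.4%, against 12.5% of all genes), and the control pair had 1 and 3. DANCR had −0.01, −0.24 and −0.07.

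ATF4 and unfolded protein response genes (22) had a median of 0.08 with 3 higher and 0 lower, RNA decay and RNA interference genes (21) 0.01 with 4 and 0, and immediate early genes (19) 0.01 with 1 and 2. Epithelial and mesenchymal genes (24) had a median of 0.03 with 4 higher and 1 lower, and stemness markers (14) −0.03 with 0 and 3. The prostate markers (7) had a median of 0.18, the highest after the interferon list, with 3 higher and 0 lower in all 3 lines, and all 7 were above 0 in PC-3. The control pair had a median of −0.19 for them, with 1 higher and 4 lower. Breast markers (8) had a median of 0.02 with 0 and 0, stomach and intestine markers (10) −0.07 with 0 and 1, and epithelial markers (5) 0.05 with 1 and 0. Of the markers of other cell types, 1 of 6 fibroblast genes was higher and 1 lower in all 3 lines (median −0.005), 2 of 5 endothelial genes were higher and 0 lower (0.05), and of 4 leukocyte genes 0 had 1 sign throughout (−0.01).

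**Figure D5:**
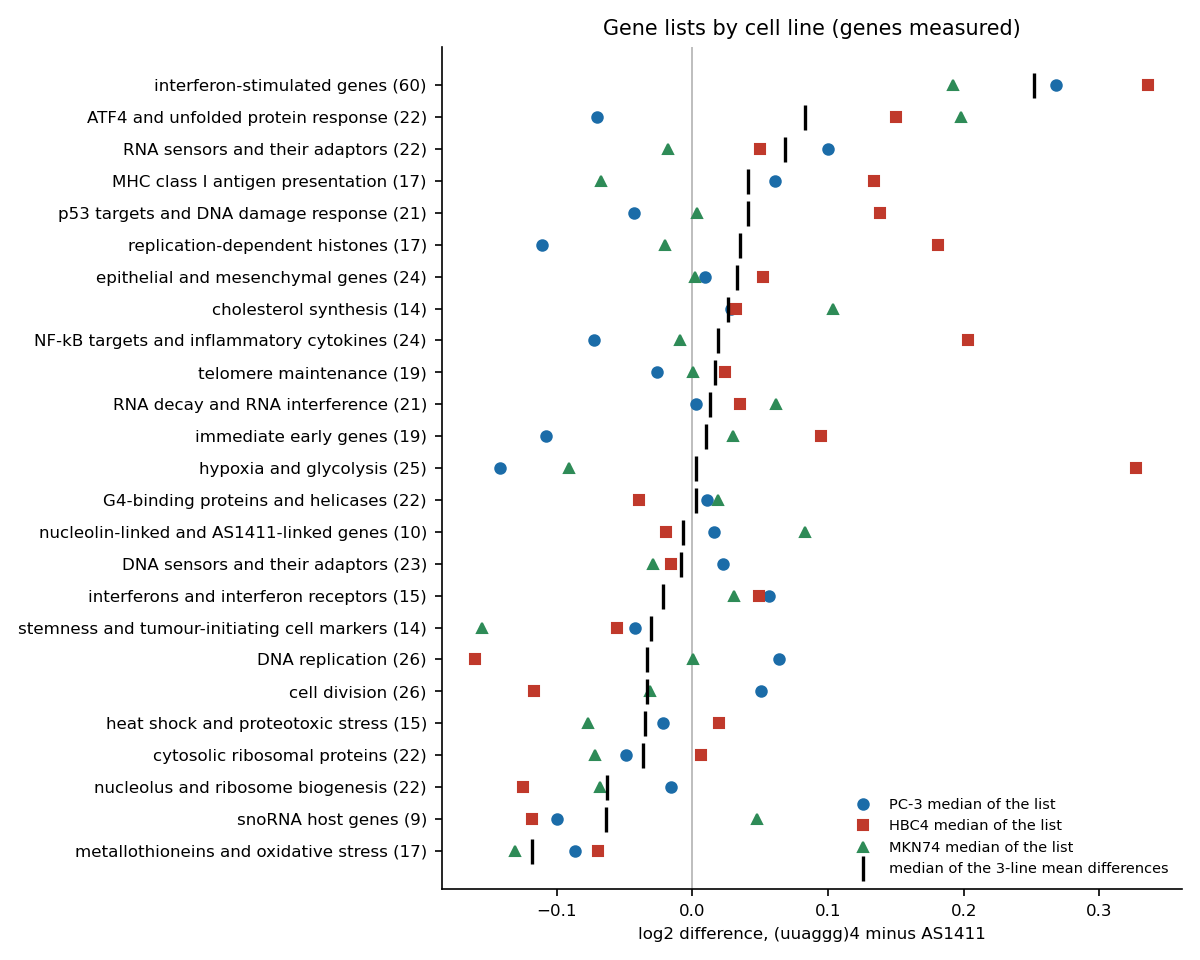
Median log2 difference, (uuaggg)4 minus AS1411, of 25 gene lists (number of genes measured in brackets), with a point for each cell line and a black bar for the median of the members' means over the lines. The interferon-stimulated genes stand highest at 0.25, with 0.27, 0.34 and 0.19 in its 3 lines, and most other lists have line medians on both sides of 0.

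Larger differences were found in single lines, where 1 array stands against 1 array and no test is possible. A difference of at least 1 was seen in 16 genes up and 12 down in PC-3, 7 and 8 in HBC4, and 29 and 11 in MKN74, against 3 and 4, 11 and 11, and 27 and 7 for the control pair. In PC-3, LUZP1 had 1.27 in (uuaggg)4 cells against −0.19 in AS1411 cells, and the mitochondrial enzyme DMGDH 0.06 against 1.56. In HBC4, CCDC68 had −1.62 against −3.29, and the complement protease CFD −3.70 against −2.47. In MKN74, PPP3R1, the regulatory subunit of calcineurin, had 0.26 against −1.44, and PRR34-AS1 −6.06 against −4.36. PPP3R1 was 1.56 higher in (uuaccc)4 cells than with the reagent alone in MKN74, and it was 1 of 4 genes (HIRA, HMGCS1, MALAT1 and PPP3R1) at least 1 higher in both pairs there, 13.8% of the 29 and 14.8% of the 27 genes. In PC-3 and HBC4 there were 0 such genes.

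Signs of RNA quality were read from array controls. The difference between 3′ and 5′ control probe sets of GAPDH moved by −0.05, −0.01 and 0.01 between (uuaggg)4 and AS1411, and that of ACTB by −0.21, −0.15 and 0.03, while it moved by up to 0.39 between the controls (HBC4). The part of these in any result above was not tested.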

How the data were processed

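The deposited values are log2 signals per probe set, made by the authors with RMA per the submitters' processing notes (no version given), and on the file's values each probe set is centred on its median over the 12 arrays, so no levels or detection calls can be had. That the log base is 2 was taken from RMA's usual output. Probe sets were named by the platform annotation, and matching to RefSeq (GRCh38.p14) changed 0 symbols. Of the probe sets, 41091 named 1 gene, 1801 several, 11721 none, and 62 controls were left out. For each of 19775 genes the probe set whose line means spread most was used. Treatment was fitted with cell line as a block over the 12 arrays (6 residual degrees of freedom) with limma 3.58.1 in R 4.3.3, and p-values were adjusted by Benjamini-Hochberg over all genes. The block pairs arrays of the same cell line, per the labels (arrays correlated at 0.892 or more within a line and at most −0.174 between lines). Tables and plots were made with Python 3.11.15.

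In each direction the text names the 12 genes whose smallest line difference was largest, some of the 3 per list with the lowest p, and preset genes; MALAT1, EZR and the extremes of single lines were picked with their values in view. The members and lists were chosen with earlier results of these data known. Alternatives were other normalizations, probe set choices, fits without the block, and leaving out each line or array. The number of arrays limits precision, and p-values measure only the spread between these samples. That spread is pooled over the 4 treatments and is not that of the 3 line differences alone. For IFI27 the line differences had a standard deviation of 0.06, while limma's standard error was 0.80.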

Additional observations from a re-analysis of the deposited data

Results flagged for a closer look

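The lists and genes here had opposite signs in different cell lines. The difference between lines was not tested, since each line has 1 array per treatment. Hypoxia and glycolysis genes (25 measured) had a median difference, (uuaggg)4 minus AS1411, of 0.327 in HBC4 and −0.142 in PC-3, with 23 genes above 0 in HBC4 and 4 in PC-3. The control pair of the same lines had list medians of −0.20 in HBC4 and 0.04 in PC-3. Replication-dependent histones (17 measured) had 0.181 in HBC4 and −0.111 in PC-3, and the control pair had −0.104 and 0.046. TLR3, the endosomal receptor of double-stranded RNA, was 0.444 in HBC4 and −1.06 in MKN74, where it had −1.27 with (uuaggg)4 against −0.22 with AS1411. On the same probe set the control pair differed by 0.62 in MKN74. The mean over lines was −0.17 for this probe set, and 0.02 and 0.03 for the 2 other probe sets of TLR3.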

How the results depend on the processing

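In all 56 alternative fits 0 genes passed the adjusted threshold, in the comparison itself, the control pair and the difference of differences; the lowest adjusted p of the comparison was 0.176. Without the replicate block of cell line, 75 genes in place of 893 had an unadjusted p under 0.05, and 0 passed. The counts of leaning genes moved most. At a smallest line difference of 0.2 there were 199 up (1.01%) and 117 down (0.592%), and at 0.5 there were 7 and 1. With probe sets averaged there were 16 (0.0809%) and 11 (0.0556%). With every probe set there were 130 (0.316%) and 46 (0.112%) of 41091 probe sets. Among the 9888 genes with the larger line SD there were 47 up (0.475%) and 17 down (0.172%). In the main setting the shares were 0.288% and 0.152%. Leaving out a line gave 214 to 285 up and 170 to 178 down, by construction, as only 2 lines then had to lean; the control pair then gave 89 to 162 up and 110 to 184 down, and without PC-3 it had more genes leaning down (184) than the G4 pair (178). The interferon list's median was between 0.21 and 0.28. The 24 leaning genes named kept their direction, which the rule that chose them largely fixes, but not their size: of the 20 with several probe sets, 19 were smaller by over 1.5 times with probe sets averaged, down to −0.0187 for PLA2R1 and 0.152 for NIPBL. With probe sets averaged PRMT5 became −0.017 and CGAS −0.075, and CGAS −0.0013 after quantile normalization. Leaving out a line or an array, ranges that crossed 0 were −0.011 to 0.23 for PRMT5, −0.21 to 0.11 for BCL2 and −0.12 to 0.029 for TERF1. They were −0.13 to 0.15 for TERF2, −0.48 to 0.29 for TLR3 and −0.13 to 0.15 for CGAS. For IFIH1 the range was −0.14 to 0.57, for IFI27 −0.67 to 0.95 and for DANCR −0.29 to 0.083. These last genes had the same sign in every line. Their ranges therefore crossed 0 only where a single array was left out, which breaks the pairing within its line. The cause was otherwise not tested.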

Other observations

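After CYP1A1 was seen among the genes leaning down, other targets of the aryl hydrocarbon receptor were read, so these values carry no test. CYP1B1, a related cytochrome, was lower with (uuaggg)4 than with AS1411 in each line, by −0.18, −0.66 and −0.57 in PC-3, HBC4 and MKN74, and ALDH3A1, an aldehyde dehydrogenase, by −0.25, −0.21 and −0.28. Of 7 targets read, CYP1A1 included, 3 were lower in all 3 lines, 0 were higher and 4 were mixed. CYP1A1 counts among the 3 by the rule that picked it. Over all genes 12.5% were lower and 13.3% higher in all 3 lines. CYP1A2 had −0.18, 0.08 and −0.25, TIPARP −0.04, −0.23 and 0.004, NQO1 0.001, −0.27 and −0.005, and the receptor's repressor AHRR 0.13, −0.05 and 0.11. AHR itself had 0.06, 0.12 and 0.06. The control pair differed by 0.16, −0.09 and −0.03 for CYP1A1 and by −0.03, 0.13 and −0.33 for CYP1B1.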
